A study of Mus musculus with 36 samples.

Results

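The 46 genes described here encode the enzymes of glycolysis, the tricarboxylic acid (TCA) cycle and the pentose phosphate pathway, and they were taken by symbol, without use of any measured value, out of 53715 genes in the count files. Of the 46, 21 belong to glycolysis, lactate handling and its regulators, 20 to pyruvate oxidation, the TCA cycle and the malate-aspartate enzymes, and 5 to the pentose phosphate pathway. RNA sequencing was done on whole kidney of 36 mice in 4 groups of 9 mice, 1 library each. The study asked how loss of the circadian transcription factor BMAL1 in the renal tubule acts on the kidney in type I diabetes.

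The deletion, abbreviated cKOt, was carried by mice of genotype Bmal1 lox/lox /Pax8-rtTA/LC1, in which doxycycline switches on Cre recombinase in Pax8-expressing cells, and Bmal1lox/lox littermates were the controls. Mice of both genotypes drank doxycycline (DOX, 2 mg/ml) for 2 weeks at 8 weeks of age, so the drug is common to all groups. Diabetes was then induced with streptozotocin (STZ, 50 mg/kg daily for 5 days), a toxin of the insulin-producing beta cell, and the other mice were injected with the vehicle, PBS. The groups are therefore STZ-cKOt, STZ-control, PBS-cKOt and PBS-control. Tissue was collected at a single time of day, Zeitgeber time (ZT) 9, when 8 weeks had passed since the injections ended. The deletion is limited to the tubule by its promoter, while whole kidney also holds glomeruli, vessels, interstitium and immune cells. The control genotype names neither transgene, so the transgenes and the deletion cannot be told apart. In such bulk tissue, fewer cells of a type and less RNA per cell cannot be told apart either.

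Glycolysis splits glucose into pyruvate in the cytosol, pyruvate dehydrogenase carries pyruvate into the mitochondrial TCA cycle as acetyl-CoA, and the pentose phosphate pathway diverts glucose 6-phosphate to make NADPH and ribose. In the kidney the proximal tubule oxidises fatty acids, lactate and glutamine and makes glucose, whereas distal segments and the medulla rely more on glycolysis. BMAL1, encoded by Arntl, binds E-box sequences with its partner and is needed for the daily rhythm of many metabolic genes.

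The files assign 16893364 to 22347538 reads to genes in each library, and all 46 genes were among the 15637 that passed the filter on low counts. Every library showed the clock genes of its labelled genotype except the library labelled STZ-control 2. There Arntl stood at 13.4 CPM (counts scaled to library size), against 1.18 to 2.64 CPM in the other 8 STZ-control libraries, and Ciart, a BMAL1 target, stood at 1.95 CPM, against 18.2 to 32.5 CPM. Npas2, another clock gene, stood at 4.49 CPM there, against 1.01 to 3.40 CPM in the other 8 libraries and at least 39.7 CPM in cKOt libraries, so the 3 genes do not point to one genotype. The Arntl count itself was higher in cKOt kidneys than in controls (log2 fold change 3.00 among PBS mice), so the gene-level count does not show the deleted exon. More than 10 CPM of 5 fat-cell markers was found in 7 libraries, PBS-control 4, 6, 8 and 9 and PBS-cKOt 3, 4 and 5. No STZ library is among these 7. Another set of 4 libraries, PBS-cKOt 1 and 3 and STZ-control 7 and 8, had the steepest drop of reads with transcript length (slopes of -0.199, -0.0795, -0.169 and -0.0914 per log2 of exon length). PBS-cKOt 3 is in both sets. The 4 were left out as a fixed list, not by a limit on this slope. They are called libraries of steep length dependence below, for a drop only. PBS-control 7, with a slope of 0.101 in the other direction, was kept. Many of the results that change without the library labelled STZ-control 2, these 4 or these 7 are given with and without them, but not all.

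Divided by exon length, the 46 genes spanned more than 3 orders of magnitude. Ldhb, the lactate dehydrogenase subunit of oxidative tissues, had the highest level at 580 ± 68.1 CPM per kb (SD, n = 36 libraries). Cytosolic malate dehydrogenase Mdh1 followed at 485 ± 46.3 CPM per kb, and the glycolytic enzymes Tpi1 (213 ± 18.8) and Aldoa (213 ± 30.6) were level with each other. The lowest were the neuronal enolase Eno2 (0.256 ± 0.0809), hexokinases Hk2 (0.204 ± 0.298) and Hk3 (0.125 ± 0.0535), and the lactate exporter Slc16a3 (0.105 ± 0.0398 CPM per kb), whose library ranges overlap. Hk1 was the most abundant of the 3 hexokinases at 11.3 CPM per kb, and its lowest library (9.09) was above the highest of Hk2 (1.83) and Hk3 (0.281). Gapdh ranked only 37 at 4.32 ± 1.02 CPM per kb. Of the 50-base windows along its longest transcript, 27.8% also occur, on either strand, in transcripts of 218 other annotated genes. Reads from a window copied at another locus have no unique place, and the deposited count can miss them. Windows shared with a gene that overlaps at the same locus keep a unique place, and the 2 kinds were not told apart. Shares counted in this way were also high for Eno1 (72.2%), Pgk1 (68.0%), Got2 (47.2%), Pgam1 (41.5%), Pkm (34.4%), Ldhb (27.0%), Pfkfb2 (26.1%), Suclg2 (21.8%), Pdha1 (16.9%) and Ldha (16.6%). Those of Pfkfb2 were shared with only 1 other gene. These shares are over the longest annotated transcript, Gapdh included. They do not give the part of each gene's reads that went uncounted, which was not measured and can be larger or smaller.

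**Figure D1:**
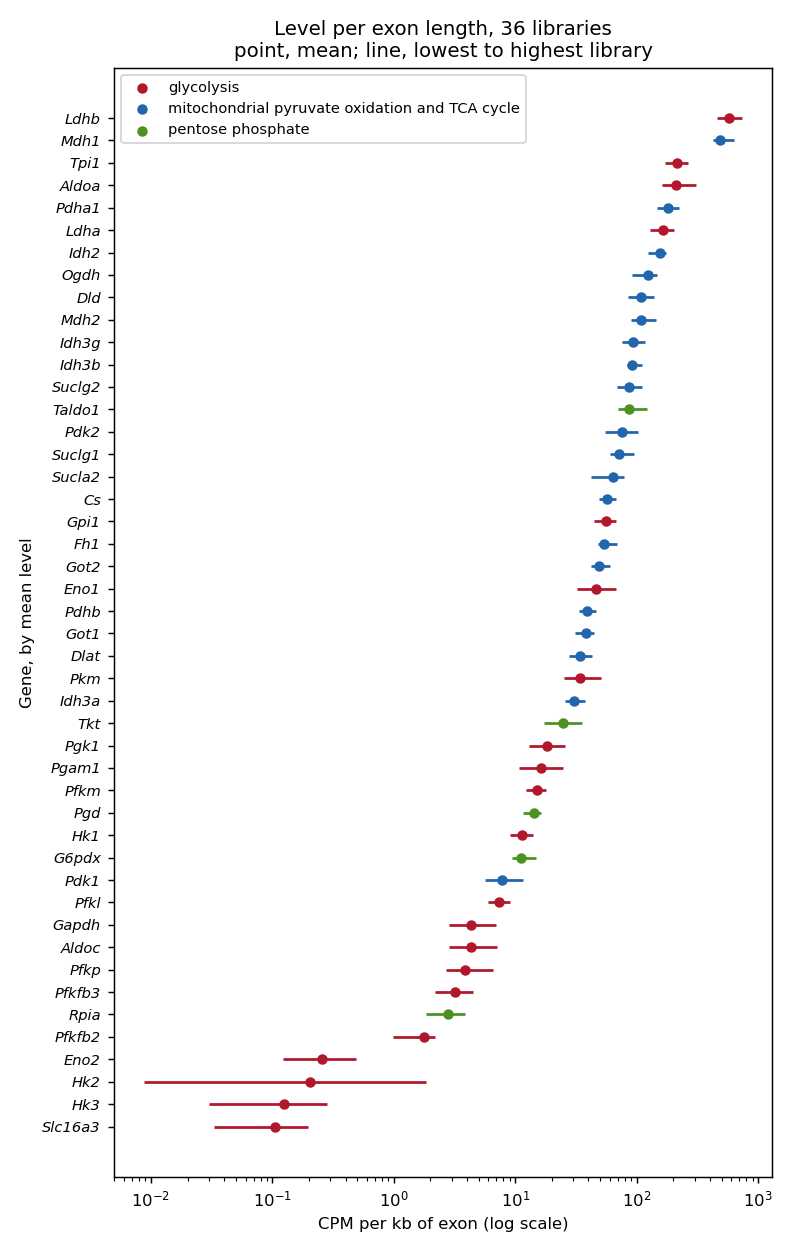
Level of each of the 46 genes in CPM per kb of exon (log axis), with the point at the mean of 36 libraries and the line between the lowest and highest library. Ldhb (580) and Mdh1 (485) stand above all other genes and Slc16a3 (0.105) is lowest.

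With BMAL1 lost from the tubule, most differences in these genes were small. Of the 46 genes, 25 (54.3%, against 40.7% of all genes tested) passed an adjusted p under 0.05 (edgeR quasi-likelihood test, Benjamini-Hochberg adjustment over all tested genes) in at least 1 of the 4 pairwise comparisons and 21 passed in none. Among the 39 calls only 2 reached a 2-fold difference, both of them for Hk2, and the median size was 0.28 on the log2 scale. In PBS mice, 14 genes differed between cKOt and control kidneys, 2 higher and 12 lower (30.4% of the 46, against 23.4% of all genes tested; 10.9% higher and 12.5% lower). Their median log2 fold change was -0.06, against 0.00 over all genes. In STZ mice, 13 genes differed between cKOt and control kidneys, 6 higher and 7 lower (28.3%, against 19.6% of all genes; 9.52% higher and 10.1% lower), with a median of -0.02 against -0.01. Of the 21 glycolysis genes, 1 was higher and 5 were lower in cKOt in each treatment. Of the 20 genes of pyruvate oxidation, TCA cycle and malate-aspartate enzymes, 1 was higher and 6 were lower in PBS mice, and 4 were higher and 1 was lower in STZ mice. Of the 5 pentose phosphate genes, 1 was lower in PBS mice, and 1 was higher and 1 lower in STZ mice. Both shares of calls lie somewhat above the share over all genes, and no test of that difference was made.

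STZ moved fewer of the genes. In control mice, 6 differed between STZ and PBS kidneys, 2 higher and 4 lower (13.0%, against 12.3% of all genes; 6.34% higher and 5.93% lower). In cKOt mice, 6 differed, 5 higher and 1 lower (13.0%, against 11.6% of all genes; 6% higher and 5.63% lower). Both shares are near the background. In both genotype comparisons 7 genes passed in the same direction, which are 50.0% of the 14 calls in PBS mice and 53.8% of the 13 in STZ mice, and these comparisons share no library. Over all genes tested the shares were 48.8% of the calls in PBS mice and 58.4% of those in STZ mice, so the 7 are near the background. They are Gapdh, Idh3a, Ldhb, Pfkfb3 and Rpia, which were lower in cKOt, and Pgam1 and Suclg1, which were higher. Pkm alone passed in both STZ comparisons (16.7% of the 6 calls in each, against 36.1% of all calls in control mice and 38.1% in cKOt mice).

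Without the library labelled STZ-control 2, the counts of called genes were 13 for cKOt against control in PBS mice, 11 for cKOt against control in STZ mice, 5 for STZ against PBS in control mice and 6 for STZ against PBS in cKOt mice. The shares called over all genes in that fit were 23.2, 18.6, 11.2 and 11.5%. Without the 4 libraries of steep length dependence the counts were 14, 8, 1 and 6, in the same order, against 21.9, 20.2, 9.38 and 11.1% of all genes. The 14 are not the same genes as before: Pfkp, Pdha1, Idh2 and Suclg1 were lost and others gained. For STZ in cKOt mice Ldha was lost and Ldhb gained. Without the 7 libraries rich in fat markers the counts were 6, 11, 5 and 2, against 12.8, 17.7, 5.95 and 7.02% of all genes. Calls lost there include Pfkp (log2 fold change -0.30, adjusted p = 0.19), Pdha1 (-0.15, 0.144), Idh2 (-0.08, 0.475) and Suclg1 (0.18, 0.122) by genotype in PBS mice. They also include Ldha (-0.20, 0.0741) for STZ in cKOt mice, and Gpi1 (-0.15, 0.0722) and Idh3a (-0.13, 0.0891) by genotype in STZ mice. The 7 libraries are in neither group of the comparison by genotype in STZ mice, but are part of the same fit. Over 13 alternative settings of the fit or the libraries, 14 of the 39 calls held in every one and 25 were lost in at least 1. The 14 were Gapdh, Pgam1, Pfkfb3, Idh3a and Ogdh in cKOt against control among PBS mice, Pgam1, Ldhb, Pfkfb3, Pdk1, Suclg1 and Suclg2 among STZ mice, Suclg2 for STZ in control mice, and Eno1 and Pdk1 for STZ in cKOt mice.

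**Figure D2:**
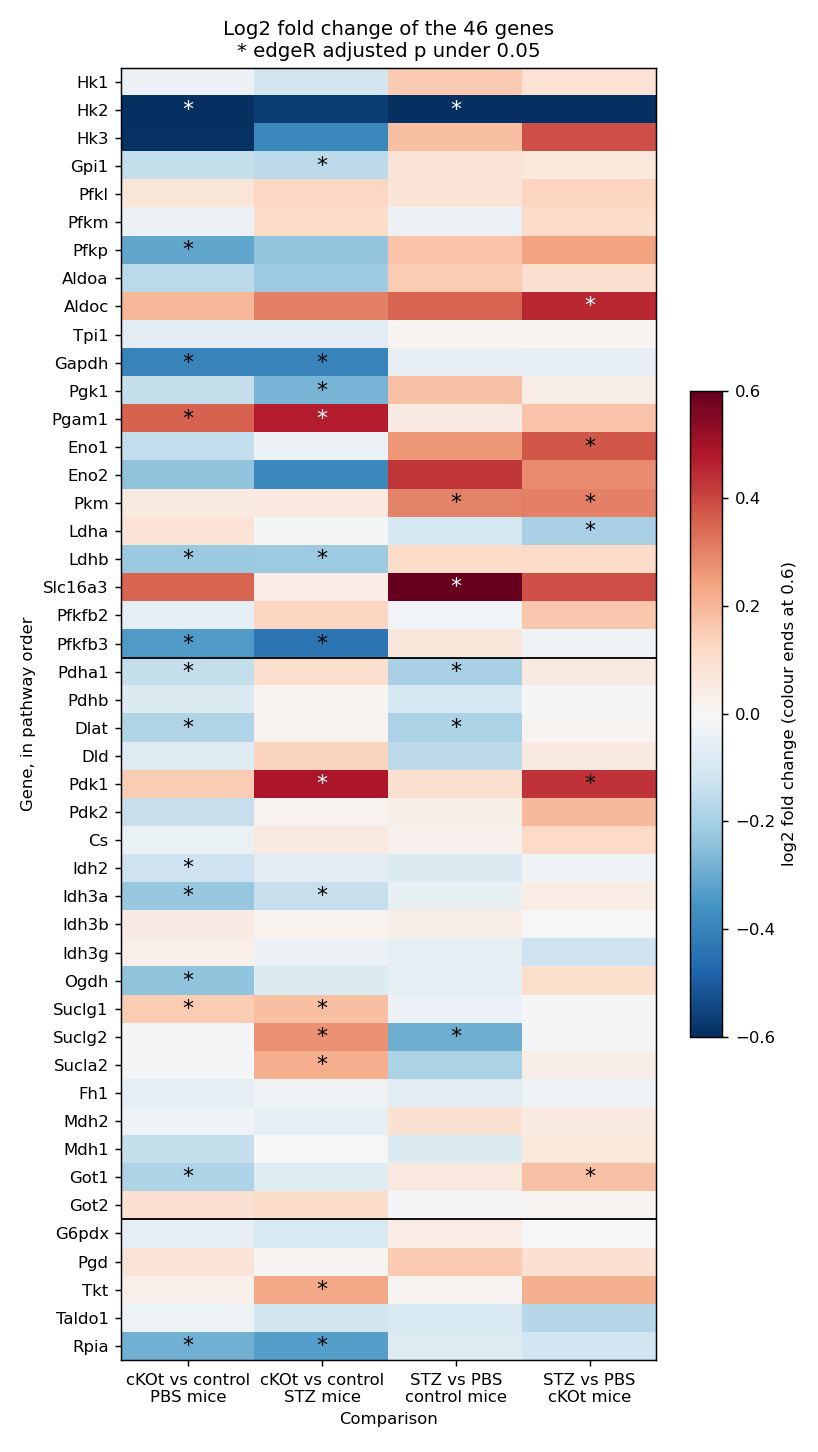
Log2 fold change of each gene (rows, in pathway order, with lines between glycolysis, pyruvate oxidation with the TCA cycle, and pentose phosphate) in the 4 comparisons (columns), red for higher and blue for lower in the group named first, with the colour ending at 0.6. Asterisks mark adjusted p under 0.05: 14, 13, 6 and 6 genes in the 4 columns.

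Promoter sequence was examined for 2 short motifs of the clock in windows of 300 bases (250 before to 50 after each RefSeq start site, GRCm38.p6). The E-box CACGTG, which reads the same on both strands, is bound by BMAL1 with its partner. The element AGGTCA, searched on both strands, is bound by the ROR and REV-ERB receptors, which the clock controls. A window was at hand for 45 of the 46 genes, and Idh3a had none. CACGTG occurred in at least 1 window of 6 genes (13.3% of 45, against 8.09% of 27025 genes): Ldha, Ogdh, Pdk2, Pfkfb2, Pfkfb3 and Pfkm. AGGTCA occurred in 12 genes (26.7%, against 18.1% of all genes). The 45 genes have 67 windows (1.49 per gene, against 1.22 over all genes), which raises a share counted by gene. Counted by window, CACGTG was in 8 of 67 (11.9%, against 7.15% of 32851 windows) and AGGTCA in 13 of 67 (19.4%, against 16.3%), differences that were not tested, and no match of one motif overlapped a match of the other in these genes. Of the 6 genes with an E-box, Pfkfb3 passed in both genotype comparisons, Ogdh in PBS mice only, and the other 4 in neither. Windows of 3 genes are shown because they belong to the regulator Pfkfb3 and to both lactate dehydrogenase genes, of which Pfkfb3 and Ldhb differed by genotype and Ldha did not pass. Capitals mark the motif, which lies 53 bases before the start of Pfkfb3 (chr2:11502041-11502340, minus strand), 145 and 48 bases before the start of Ldha (chr7:46845554-46845853, plus strand), and, as AGGTCA on the opposite strand, 157 bases before the start of Ldhb (chr6:142507908-142508207, minus strand). A match describes these letters and does not show binding.
Pfkfb3: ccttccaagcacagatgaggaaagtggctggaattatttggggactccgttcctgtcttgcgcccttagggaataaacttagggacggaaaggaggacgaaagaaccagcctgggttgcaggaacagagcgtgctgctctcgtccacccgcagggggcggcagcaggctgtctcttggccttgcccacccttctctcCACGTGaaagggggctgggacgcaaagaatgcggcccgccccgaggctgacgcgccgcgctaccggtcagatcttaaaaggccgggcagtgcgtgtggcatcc
Ldha: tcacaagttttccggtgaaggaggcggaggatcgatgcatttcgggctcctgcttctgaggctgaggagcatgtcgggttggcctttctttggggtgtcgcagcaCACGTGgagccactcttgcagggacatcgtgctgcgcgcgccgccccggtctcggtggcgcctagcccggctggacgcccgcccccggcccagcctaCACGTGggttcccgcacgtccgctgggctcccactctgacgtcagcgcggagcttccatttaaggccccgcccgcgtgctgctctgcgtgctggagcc
Ldhb: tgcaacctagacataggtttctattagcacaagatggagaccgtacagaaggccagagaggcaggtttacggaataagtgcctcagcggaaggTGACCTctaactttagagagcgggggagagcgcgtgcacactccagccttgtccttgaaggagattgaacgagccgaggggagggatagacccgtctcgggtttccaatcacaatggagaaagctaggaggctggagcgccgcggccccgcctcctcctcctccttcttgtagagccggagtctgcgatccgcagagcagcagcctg

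Hexokinases trap glucose as glucose 6-phosphate. Hk1, the main form here, did not pass in any comparison, with log2 fold changes between -0.11 and 0.16, nor did Hk3. Hk2 is an insulin-responsive form of muscle and fat. In PBS mice its level lay between 0.0519 and 2.99 CPM (median 0.473) in cKOt libraries, against 0.438 to 10.9 CPM (median 1.58) in control libraries. The ranges overlap, and the top value of 10.9 CPM came from 1 library, PBS-control 8. The difference was -1.39 ± 0.47 on the log2 scale (SE; adjusted p = 0.027), and that between STZ-control and PBS-control was -1.44 ± 0.47 (adjusted p = 0.038). Without PBS-control 8 the changes were -0.57 (adjusted p = 0.318) and -0.62 (adjusted p = 0.312), so both calls were lost. Its 5 fat markers (Adipoq, Plin1, Cidec, Lep and the brown fat gene Ucp1) summed to 145.9 CPM, 107 CPM of it from Ucp1. In the 7 libraries above 10 CPM of these markers Hk2 lay between 1.06 and 10.9 CPM, and in the other 29 between 0.0519 and 1.70 CPM with a median of 0.728. The summed markers lay between 0.271 and 7.30 CPM in STZ-cKOt, 0.709 and 8.30 CPM in STZ-control, 0.104 and 29.2 CPM in PBS-cKOt, and 2.01 and 145.9 CPM in PBS-control libraries. All 4 of these markers that were tested were lower in STZ-control than in PBS-control mice, and 1 of the 4 was lower in PBS-cKOt than in PBS-control mice. Without these 7 libraries, PBS-control 8 among them, the STZ difference in control mice was -0.22 (adjusted p = 0.705), while the genotype difference in PBS mice was -1.55 and still passed (adjusted p = 0.00359). The 7 libraries include 3 of PBS-cKOt, 1 of which held the highest Hk2 level of its group (2.99 CPM). The genotype call was also lost with only its own groups in the fit (adjusted p = 0.0982) and with the replicate block (adjusted p = 0.084), and it held in 10 of 13 alternative settings.

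**Figure D3:**
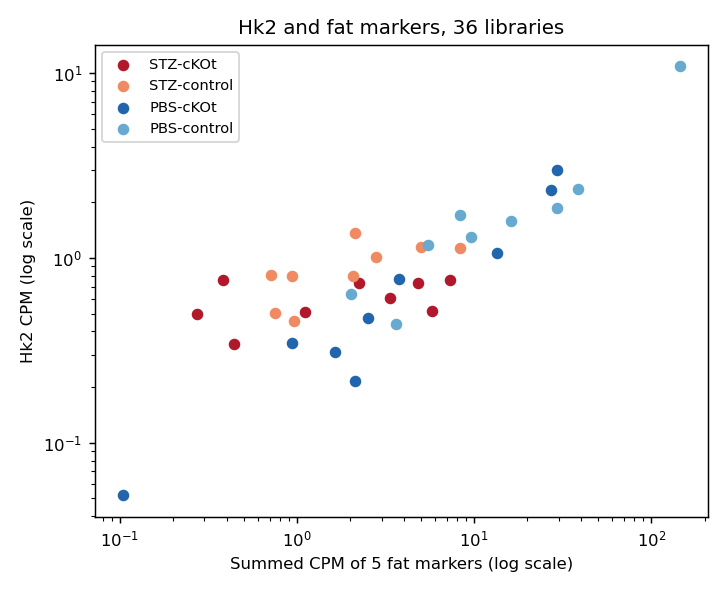
Hk2 level (CPM) against the summed CPM of 5 fat markers in 36 libraries (both axes log), coloured by group. The PBS-control 8 library stands at the top right, with 10.9 CPM of Hk2 and 145.9 CPM of fat markers.

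The enzymes of upper glycolysis turn glucose 6-phosphate into triose phosphates. Of 7 such genes, 1 passed as lower in cKOt than in control kidneys in each treatment, Pfkp in PBS mice and Gpi1 in STZ mice. Pfkp, the platelet-type subunit of phosphofructokinase, had a log2 fold change of -0.31 ± 0.10 (adjusted p = 0.027). Gpi1, glucose 6-phosphate isomerase, had one of -0.16 ± 0.06 (adjusted p = 0.043). Neither call held without the 4 libraries of steep length dependence (adjusted p = 0.0886 and 0.167), and the Gpi1 call was also lost without STZ-control 2 (adjusted p = 0.0622). The other phosphofructokinase subunits Pfkl (liver type) and Pfkm (muscle type), and Aldoa and Tpi1, passed in no comparison. The brain-type aldolase Aldoc was higher in STZ-cKOt than in PBS-cKOt kidneys by 0.45 ± 0.13 (adjusted p = 0.018), a call lost without the fat-rich libraries (0.38, adjusted p = 0.14).

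PFKFB enzymes set the level of fructose 2,6-bisphosphate, the main activator of phosphofructokinase. Pfkfb3, the form with the strongest kinase activity, was lower in cKOt under both treatments. In PBS mice it lay between 16.4 and 25.8 CPM (median 20.9) in cKOt libraries, against 21.7 to 34.0 CPM (median 27.2) in control libraries. In STZ mice it lay between 16.6 and 24.3 CPM (median 20.7) in cKOt libraries, against 21.2 to 33.5 CPM (median 29.6) in control libraries. The ranges overlap in both treatments, yet all 9 cKOt libraries of each treatment were below the control median. The log2 fold changes were -0.34 ± 0.10 in PBS mice (adjusted p = 0.0096) and -0.43 ± 0.10 in STZ mice (adjusted p = 0.001), or 1.26-fold and 1.35-fold lower. Both calls held in all 13 alternative settings. STZ left Pfkfb3 uncalled in either genotype, with 95% intervals of -0.13 to 0.27 in control and -0.22 to 0.18 in cKOt mice. Pfkfb2, the form of heart and kidney, passed nowhere.

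**Figure D4:**
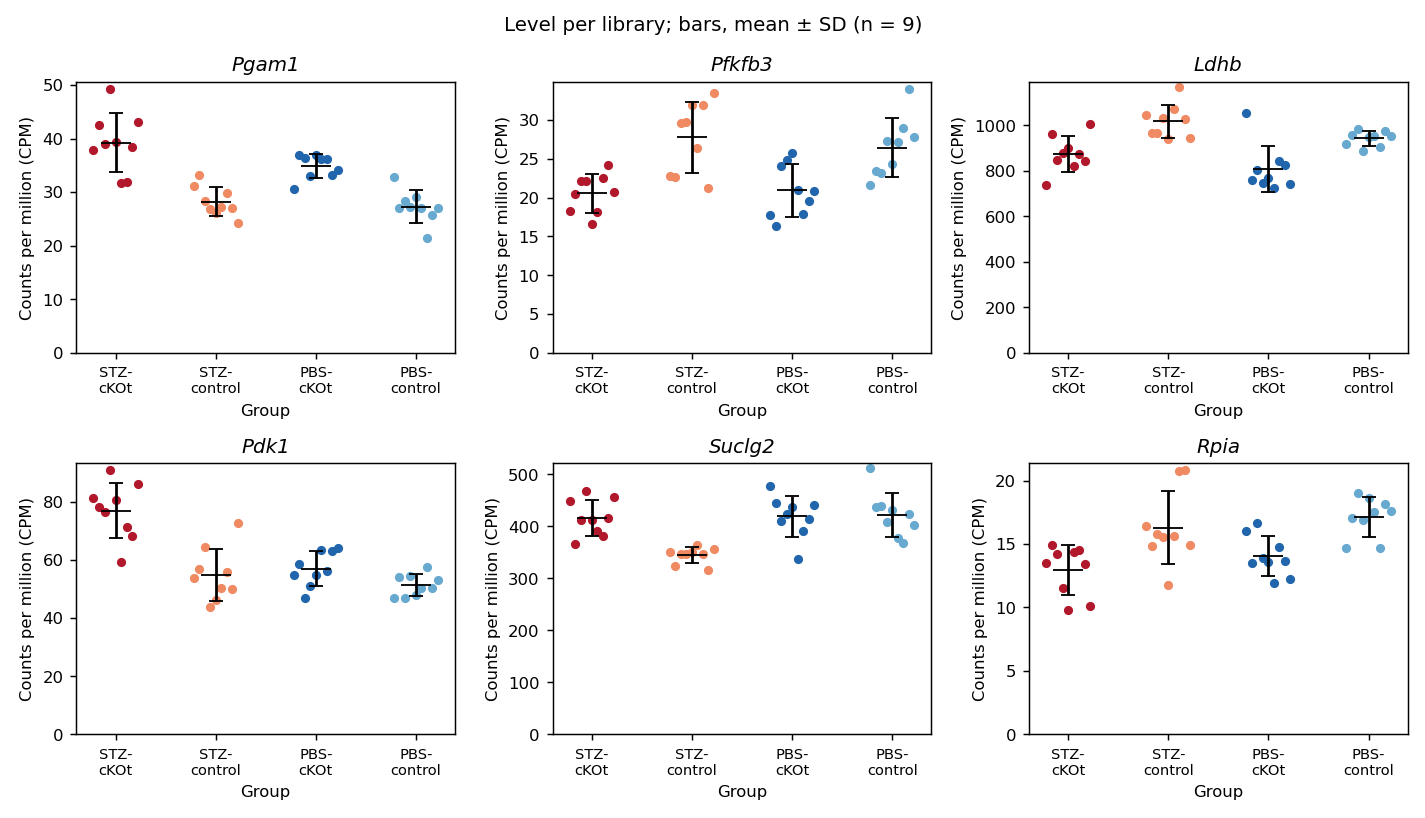
CPM per library (points) with the mean and SD (bars, n = 9) for Pgam1, Pfkfb3, Ldhb, Pdk1, Suclg2 and Rpia in the 4 groups. Pgam1 is higher and Pfkfb3, Ldhb and Rpia are lower in cKOt under both treatments, Pdk1 is highest in STZ-cKOt (median 78.3) and Suclg2 lowest in STZ-control (median 347).

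Lower glycolysis leads to pyruvate through 6 of the genes. Pgam1, phosphoglycerate mutase, was the gene of the 46 with the smallest adjusted p. In PBS mice it lay between 30.7 and 37.0 CPM (median 36.1) in cKOt libraries, against 21.4 to 32.8 CPM (median 27.1) in control libraries. Among STZ mice the range was 31.7 to 49.2 CPM (median 39.0) in cKOt libraries, against 24.3 to 33.2 CPM (median 27.3) in control libraries. Every cKOt library was above the control median of its treatment, with a short overlap of the ranges. The log2 fold changes were 0.35 ± 0.07 in PBS mice (adjusted p = 0.000305) and 0.47 ± 0.07 in STZ mice (adjusted p = 3.12e-06), or 1.28-fold and 1.39-fold higher, in all 13 settings too.

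Gapdh, the dehydrogenase 2 steps earlier, moved the other way. In PBS mice it lay between 11.7 and 19.3 CPM (median 15.9) in cKOt libraries, against 15.2 to 28.5 CPM (median 19.2) in control libraries. In STZ mice it lay between 11.9 and 19.3 CPM (median 14.2) in cKOt libraries, against 13.8 to 24.9 CPM (median 20.5) in control libraries. The groups overlap, and the changes were -0.40 ± 0.12 in both treatments (adjusted p = 0.0154 in PBS mice and 0.0182 in STZ mice). The second call was lost without the 4 libraries of steep length dependence (-0.30, adjusted p = 0.096). Pgk1, phosphoglycerate kinase, was lower in cKOt only among STZ mice by the test, at -0.28 ± 0.09 (adjusted p = 0.019), and the difference between treatments did not pass (-0.14 ± 0.12, adjusted p = 0.594). It was lost when STZ-control 2 and the 4 libraries were left out together (adjusted p = 0.0816).

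Eno1, the main enolase, was higher with STZ in cKOt mice. Its level lay between 202 and 360.1 CPM (median 250.02) in STZ-cKOt libraries, against 174 to 285 CPM (median 195) in PBS-cKOt libraries. All 9 STZ libraries were above the PBS median, the ranges overlap, and the change was 0.37 ± 0.09 (adjusted p = 0.0073). In control mice the STZ libraries lay between 242 and 357 CPM (median 273), against 192 to 302 CPM (median 229) in PBS libraries. That change was 0.26 ± 0.09 and did not pass (adjusted p = 0.0663), and the 2 STZ effects were not shown to differ (adjusted p = 0.698). Without PBS-control 8, whose Eno1 level of 302 CPM was the highest of its group, it did pass (0.31, adjusted p = 0.023). Pkm, pyruvate kinase of most tissues, was higher with STZ in both genotypes, by 0.30 ± 0.09 in cKOt (adjusted p = 0.0234) and by 0.30 ± 0.09 in control mice (adjusted p = 0.0257). The cKOt call was lost without the fat-rich libraries (0.27, adjusted p = 0.0886). The control call was lost without the 4 libraries of steep length dependence (0.26, adjusted p = 0.0748). Eno2 passed in no comparison.

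Lactate dehydrogenase interconverts pyruvate and lactate. Ldhb, the subunit favoured in tissues that take up lactate, was lower in cKOt under both treatments. In PBS mice it lay between 726 and 1054 CPM (median 767) in cKOt libraries, against 885 to 985 CPM (median 951) in control libraries. Among STZ mice the range was 738 to 1004 CPM (median 873) in cKOt libraries, against 938 to 1168 CPM (median 1029) in control libraries. The PBS overlap comes from 1 library, PBS-cKOt 1 at 1054 CPM, and the other 8 reach 843 CPM, below every PBS-control library. The changes were -0.22 ± 0.06 in PBS mice (adjusted p = 0.00512) and -0.22 ± 0.06 in STZ mice (adjusted p = 0.00695). The PBS call was lost without the fat-rich libraries (-0.19, adjusted p = 0.131), and the STZ call held in all 13 settings.

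Ldha, the subunit of glycolytic tissues, passed in neither genotype comparison, with 95% intervals of -0.03 to 0.20 in PBS mice and -0.12 to 0.11 in STZ mice. It was lower in STZ-cKOt than in PBS-cKOt kidneys with a log2 fold change of -0.20 ± 0.06 (adjusted p = 0.0164), with 462 to 576 CPM (median 504) against 552 to 674 CPM (median 602). That call was lost without the 4 libraries of steep length dependence (adjusted p = 0.0583). Slc16a3, the lactate exporter MCT4, had only 3 to 23 reads per library. It was higher in STZ-control than in PBS-control kidneys by 0.69 ± 0.24 (adjusted p = 0.0485). That call held in only 2 of the 11 alternative settings in which it was tested. Settings that lost it include those without STZ-control 2 (adjusted p = 0.115) or PBS-control 8 (adjusted p = 0.069), DESeq2 (adjusted p = 0.0644) and limma voom (adjusted p = 0.163).

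Pyruvate dehydrogenase is the gate from glycolysis to the TCA cycle, and its kinases switch it off. Among its 4 subunit genes, 2 were lower in cKOt than in control kidneys of PBS mice and none passed in STZ mice. Pdha1, the catalytic alpha subunit and the target of the kinases, lay between 617 and 707 CPM (median 671) in PBS-cKOt libraries, against 663 to 835 CPM (median 729) in PBS-control libraries. In STZ mice it lay between 628 and 770.4 CPM (median 695) in cKOt libraries, against 553 to 692 CPM (median 656) in control libraries. The medians thus fall on opposite sides in the 2 treatments, and the groups overlap in each. The changes were -0.14 ± 0.05 in PBS mice (adjusted p = 0.032) and 0.11 ± 0.05 in STZ mice (adjusted p = 0.127). With STZ, Pdha1 was lower in control mice with a log2 fold change of -0.19 ± 0.05 (adjusted p = 0.0072) and did not pass in cKOt mice (0.05 ± 0.05, adjusted p = 0.533). Both Pdha1 calls were lost without the 4 libraries of steep length dependence (adjusted p = 0.0675 and 0.055).

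Dlat, the acetyltransferase core, lay between 144 and 185 CPM (median 168) in STZ-cKOt, between 135 and 181 CPM (median 163) in STZ-control, between 152 and 169.5 CPM (median 161) in PBS-cKOt and between 166 and 211 CPM (median 183) in PBS-control libraries. PBS-control was thus the highest group. The genotype difference in PBS mice was -0.18 ± 0.05 (adjusted p = 0.013), lost without the fat-rich libraries (-0.20, adjusted p = 0.0761). The STZ difference in control mice was -0.19 ± 0.05 (adjusted p = 0.0194), lost without the 4 libraries of steep length dependence (adjusted p = 0.146). Pdhb and Dld passed nowhere.

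Pdk1, a kinase that inactivates pyruvate dehydrogenase, was highest in STZ-cKOt kidneys. It lay between 59.3 and 90.8 CPM (median 78.3) in STZ-cKOt, between 43.7 and 72.5 CPM (median 53.7) in STZ-control, between 47.0 and 64.2 CPM (median 56.1) in PBS-cKOt and between 46.8 and 57.6 CPM (median 50.2) in PBS-control libraries. STZ-cKOt overlaps with STZ-control and with PBS-cKOt, but all 9 of its libraries were above the median of each. Pdk1 was higher in STZ-cKOt than in STZ-control by 0.49 ± 0.08 (adjusted p = 1.2e-05) and higher in STZ-cKOt than in PBS-cKOt by 0.43 ± 0.08 (adjusted p = 0.000271), 1.40-fold and 1.35-fold. Both held in all 13 settings, and these 2 comparisons share the STZ-cKOt libraries. In PBS mice the genotype difference was 0.15 ± 0.08 (adjusted p = 0.175) and in control mice the STZ difference 0.10 ± 0.08 (adjusted p = 0.462). Pdk2, more abundant per length than Pdk1 (76.4 against 7.71 CPM per kb), passed in no comparison.

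Of 11 TCA cycle genes, cKOt kidneys had 1 higher and 3 lower in PBS mice and 3 higher and 1 lower in STZ mice. Idh3a, the catalytic subunit of the NAD-dependent isocitrate dehydrogenase, was lower under both treatments. In PBS mice it lay between 139 and 160.4 CPM (median 140.2) in cKOt libraries, against 152 to 189 CPM (median 169.7) in control libraries. Among STZ mice the range was 130.04 to 164 CPM (median 152) in cKOt libraries, against 151 to 184 CPM (median 161) in control libraries. All 9 cKOt libraries in PBS mice and 7 of 9 in STZ mice were below the control median, with overlap in both. The changes were -0.23 ± 0.05 in PBS mice (adjusted p = 0.00081), held in all 13 settings, and -0.14 ± 0.05 in STZ mice (adjusted p = 0.0466). The STZ call was lost without STZ-control 2 (-0.12, adjusted p = 0.108). It was also lost by a small margin without PBS-control 8 (-0.14, adjusted p = 0.0512), which is in neither group of that comparison. The partner subunits Idh3b and Idh3g passed nowhere.

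Ogdh, the first component of the 2-oxoglutarate dehydrogenase complex, lay between 502 and 675 CPM (median 621) in PBS-cKOt libraries, against 610.0 to 804 CPM (median 727) in PBS-control libraries. All 9 cKOt libraries were below the control median although the ranges overlap, and the change was -0.24 ± 0.06 (adjusted p = 0.00548), held in all 13 settings. In STZ mice it lay between 545 and 775 CPM (median 664) in cKOt libraries, against 586 to 806 CPM (median 694) in control libraries, and did not pass (-0.08 ± 0.06, adjusted p = 0.425). Idh2, the mitochondrial NADP-dependent form, differed with a log2 fold change of -0.12 ± 0.05 in PBS mice (adjusted p = 0.0435), a call that held in 5 of 13 alternative settings and was lost without PBS-control 8 (adjusted p = 0.0799).

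The 3 succinyl-CoA ligase genes were higher in cKOt than in control kidneys of STZ mice. Suclg2, the GTP-forming beta subunit, lay between 366 and 468 CPM (median 413) in STZ-cKOt, between 316 and 364 CPM (median 347) in STZ-control, between 337 and 478 CPM (median 423) in PBS-cKOt and between 367 and 512 CPM (median 424) in PBS-control libraries. The STZ-control group was the low one, and its range overlaps with neither STZ-cKOt nor PBS-control. Suclg2 was the only gene of the 46 without overlap, in these 2 comparisons, against 3.5% and 1.22% of all genes. In the other comparisons, cKOt against control in PBS mice and STZ against PBS in cKOt mice, 0 of the 46 did, against 5.12% and 0.876% of all genes. It was higher in STZ-cKOt than in STZ-control by 0.28 ± 0.06 (adjusted p = 0.000567) and lower in STZ-control than in PBS-control with a log2 fold change of -0.29 ± 0.06 (adjusted p = 0.000818), and both held in all 13 settings. These comparisons share the STZ-control libraries. Genotype made no called difference in PBS mice (95% interval -0.13 to 0.11).

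Suclg1, the alpha subunit common to both ligases, was higher in cKOt by 0.15 ± 0.06 in PBS mice (adjusted p = 0.0477), and among STZ mice by 0.18 ± 0.06 (adjusted p = 0.020). In STZ mice the call held in all 13 settings. In PBS mice 1 library, PBS-cKOt 1 at 442 CPM against 319 to 359 CPM in the other 8 libraries, stood apart. The PBS call was lost without the 4 libraries that include it (0.10, adjusted p = 0.158). It was also lost by a small margin without STZ-control 2 (0.15, adjusted p = 0.0517), which is in neither group of that comparison. Sucla2, the ATP-forming beta subunit, was higher in STZ-cKOt than in STZ-control by 0.22 ± 0.07 (adjusted p = 0.0263), lost without the 4 libraries (0.13, adjusted p = 0.0946). Citrate synthase (Cs), fumarase (Fh1) and mitochondrial malate dehydrogenase (Mdh2) passed in no comparison, with log2 fold changes between -0.06 and 0.12.

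The malate-aspartate enzymes move reducing equivalents between cytosol and mitochondria. Got1, the cytosolic aspartate aminotransferase, lay between 83.5 and 114 CPM (median 97.9) in STZ-cKOt, between 90.9 and 112 CPM (median 103) in STZ-control, between 79.5 and 93.9 CPM (median 86.0) in PBS-cKOt and between 92.5 and 106 CPM (median 98.5) in PBS-control libraries. PBS-cKOt was the low group. Got1 was lower in PBS-cKOt than in PBS-control with a log2 fold change of -0.19 ± 0.05 (adjusted p = 0.00636) and higher in STZ-cKOt than in PBS-cKOt by 0.18 ± 0.05 (adjusted p = 0.0185). Both calls were lost without the fat-rich libraries, where the changes were -0.19 (adjusted p = 0.0756) and 0.20 (adjusted p = 0.0525). The 2 comparisons share the PBS-cKOt libraries. Mdh1 and Got2 passed nowhere.

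In the pentose phosphate pathway the oxidative enzymes G6pdx and Pgd, which make NADPH, and transaldolase (Taldo1) passed in no comparison. Rpia, which makes ribose 5-phosphate, was lower in cKOt under both treatments. In PBS mice it lay between 11.9 and 16.7 CPM (median 13.7) in cKOt libraries, against 14.7 to 19.0 CPM (median 17.6) in control libraries. Among STZ mice the range was 9.83 to 14.9 CPM (median 13.5) in cKOt libraries, against 11.8 to 20.8 CPM (median 15.6) in control libraries. All cKOt libraries were below the control median, with overlap, and the changes were -0.29 ± 0.09 in PBS mice (adjusted p = 0.0181) and -0.33 ± 0.09 in STZ mice (adjusted p = 0.00821). The first was lost without the fat-rich libraries (-0.29, adjusted p = 0.127). The second was lost without the 4 libraries of steep length dependence (-0.21, adjusted p = 0.0668). Transketolase (Tkt) was higher in STZ-cKOt than in STZ-control by 0.23 ± 0.08 (adjusted p = 0.0324), lost without the same 4 libraries (adjusted p = 0.0814).

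Whether STZ acted differently in the 2 genotypes was tested by the interaction of genotype and treatment. None of the 46 genes passed by edgeR, DESeq2 or limma voom, and 7 genes in all did by edgeR (0.0448% of 15637, all with a lower STZ effect in cKOt). At an unadjusted p under 0.05 there were 6 genes by edgeR (13% of the 46, against 12.4% of all genes tested), a share near the background. Without the 4 libraries of steep length dependence there were 4 (8.7%, against 5.25% of all genes). Without those and STZ-control 2 there were 6 (13%, against 4.64%), and these differences in share were not tested. Each of the 6 genes of the main fit had the higher STZ effect in cKOt. They were Pdha1 (0.25 ± 0.07, adjusted p = 0.238), Suclg2 (0.28 ± 0.08, adjusted p = 0.276), Pdk1 (0.34 ± 0.11, adjusted p = 0.332), Dlat (0.20 ± 0.08, adjusted p = 0.364), Dld (0.21 ± 0.09, adjusted p = 0.373) and Sucla2 (0.23 ± 0.10, adjusted p = 0.375). Of the 20 genes of pyruvate oxidation, TCA cycle and malate-aspartate enzymes, 17 had a positive interaction, with a median of 0.11 against -0.01 over all genes. For the 21 glycolysis genes the median was 0.00 and 12 were positive. None of these differences passed the adjusted threshold, so genes called in 1 treatment or 1 genotype alone are not shown to differ between them, and no gene of the 46 was called in opposite directions.

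**Figure D5:**
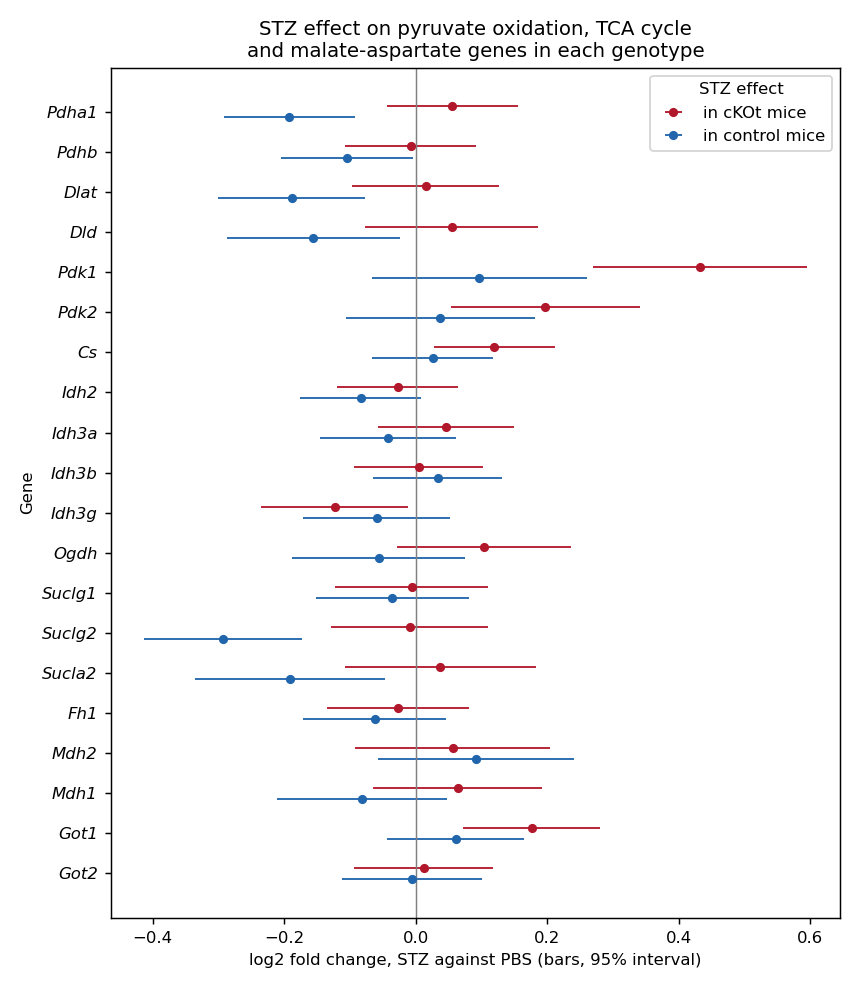
Log2 fold change of STZ against PBS (points, with 95% intervals) for the 20 genes of pyruvate oxidation, TCA cycle and malate-aspartate enzymes, in cKOt mice (red) and control mice (blue). The red point lies to the right of the blue one for 17 genes, among them Pdha1, Pdk1 and Suclg2, and the interaction passed for none.

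A further list of 66 genes of the same pathways, of which 57 were tested, was set beside the 46. In cKOt against control kidneys of PBS mice, 8 were higher and 12 lower (35.1% of 57, against 23.4% of all genes). In STZ mice 12 were higher and 7 lower (33.3%, against 19.6%). With STZ, 3 were higher and 9 lower in control mice (21.1%, against 12.3%). In cKOt mice 2 were higher and 6 lower with STZ (14%, against 11.6%), which is near the background. These differences in share were not tested. In cKOt against control kidneys of STZ mice, Ldhd, Glud1 and Mpc1 differed more than any called gene of the 46. Ldhd, which oxidises D-lactate in mitochondria, averaged 557 ± 91.8 CPM in STZ-cKOt and 1172 ± 245 CPM in STZ-control libraries, and 943 ± 147 CPM in PBS-cKOt and 1553 ± 156 CPM in PBS-control libraries (SD, n = 9 each). It was lower in cKOt with a log2 fold change of -1.07 ± 0.11 in STZ mice (adjusted p = 6.61e-10) and of -0.72 ± 0.11 in PBS mice (adjusted p = 2.41e-06). Ldhd was also lower with STZ (log2 fold change -0.76 in cKOt and -0.41 in control mice). The STZ call in control mice was lost without the fat-rich libraries (-0.40, adjusted p = 0.0798). Mpc1, a subunit of the mitochondrial pyruvate carrier, was lower in cKOt with a log2 fold change of -0.62 ± 0.07 in STZ mice (adjusted p = 1.37e-08) and with a log2 fold change of -0.53 ± 0.07 in PBS mice (adjusted p = 3.04e-07).

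Glud1, glutamate dehydrogenase, was higher in STZ-cKOt than in STZ-control by 0.76 ± 0.09 (adjusted p = 7.31e-09) and higher in STZ-cKOt than in PBS-cKOt by 0.52 ± 0.09 (adjusted p = 4.81e-05). The glucose transporter Slc2a1 was higher in cKOt by 0.34 ± 0.07 in STZ mice (adjusted p = 0.000938) and by 0.49 ± 0.08 in PBS mice (adjusted p = 3.16e-06). Cytosolic malic enzyme Me1 was lower in all 4 comparisons, with log2 fold changes of -0.27 to -0.31. With STZ in control mice, the dicarboxylate carrier Slc25a10 (-0.30), ATP citrate lyase Acly (-0.34) and Dhtkd1 (-0.40), a relative of Ogdh, were lower. Slc25a10 (-0.28, adjusted p = 0.0815) and Acly (-0.22, adjusted p = 0.19) were lost without the fat-rich libraries. Acly was also lost without the 4 libraries of steep length dependence (adjusted p = 0.0549), and Dhtkd1 without those 4 and STZ-control 2 (adjusted p = 0.0901). With STZ in cKOt mice the kinase Pdk3 (-0.35) and the gene listed as Pgm1, a phosphoglucomutase (-0.18), were lower.

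Markers of other cells are set beside these results. Over all genes tested, 23.4% passed by genotype in PBS mice and 19.6% in STZ mice. With STZ, 12.3% passed in control and 11.6% in cKOt mice, and shares of so few markers were not tested against these. The 5 erythroid markers passed in no comparison. Of 4 podocyte markers, 1 was higher with STZ in cKOt mice, and of 5 lymphocyte markers, 1 was lower in cKOt among STZ mice. The summed CPM of 10 proximal tubule markers lay between 8839 and 11823 in STZ-cKOt, 9576 and 12782 in STZ-control, 9777 and 13184 in PBS-cKOt, and 12092 and 14044 in PBS-control libraries, and cKOt kidneys had 3 of the 10 lower in PBS mice and 5 of the 10 lower in STZ mice. With STZ, 4 of the 10 were lower in cKOt and 3 of the 10 in control mice. By genotype in STZ mice, 5 of the 10 had a positive change, of which 0 passed. The 4 distal convoluted tubule markers lay between 1507 and 2196 CPM in STZ-cKOt, 1185 and 1531 CPM in STZ-control, 826 and 1879 CPM in PBS-cKOt, and 951 and 1517 CPM in PBS-control libraries. Of these 4, STZ kidneys had 2 higher in cKOt and 3 higher in control mice, and cKOt kidneys had 1 higher in PBS mice and 2 higher in STZ mice. Of 5 intercalated cell markers, 3 were higher in cKOt among PBS mice, and 1 was higher and 1 lower among STZ mice. With STZ, 1 of the 5 was higher in control mice and 0 differed in cKOt mice. The 7 fibroblast and mural markers lay between 213 and 281 CPM in STZ-cKOt, 253 and 329 CPM in STZ-control, 149 and 210.04 CPM in PBS-cKOt, and 186 and 279 CPM in PBS-control libraries. Of these 7, cKOt kidneys had 5 lower in PBS mice and 1 lower in STZ mice, and STZ raised 4 in cKOt and 2 in control mice. The 6 macrophage markers lay between 61.5 and 80.8 CPM in STZ-cKOt, 74.0 and 115.7 CPM in STZ-control, 72.7 and 86.7 CPM in PBS-cKOt, and 81.5 and 95.6 CPM in PBS-control libraries, with 2 of the 6 lower in cKOt among PBS mice and 3 of the 6 among STZ mice. With STZ, 2 of the 6 were higher in control mice and 1 was lower in cKOt mice. Of 6 collecting duct principal cell markers, cKOt kidneys had 1 higher and 1 lower in PBS mice, and 1 lower in STZ mice. STZ kidneys had 1 of those 6 lower in control mice and 2 lower in cKOt mice. Of 6 endothelial markers, 1 was lower in cKOt among PBS mice and 2 were higher with STZ in cKOt mice. Of 5 thick ascending limb markers, 1 was lower in cKOt among STZ mice and 1 was lower with STZ in each genotype. Mitochondrially encoded transcripts took 15.8 ± 1.71% of assigned reads in STZ-cKOt and 18.8 ± 3.76% in STZ-control libraries, with 14.4 ± 1.83% in PBS-cKOt and 16.4 ± 2.11% in PBS-control libraries (SD, n = 9 each). The part of these shifts in the differences of the 46 genes, those of Eno1 and Pkm with STZ included, was not tested.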

How the data were processed

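Whole-kidney RNA of 36 mice (9 per group) was sequenced. The deposited files hold raw read counts per Ensembl gene, 1 file per mouse. Per the labels' protocols, libraries were made with a stranded mRNA kit from 500 ng of total RNA. Per the submitters' processing notes, the authors used cutadapt 1.8, STAR 2.5.3a and HTSeq 0.9.1 on GRCm38; the order of use, annotation release and strand setting are not given in the sources used here. Reads with several placements went uncounted (30.9 to 42.8% per library by the count files' summary rows), as did 3.64 to 6.38% in no feature; these 5 summary rows were left out of library sizes. Symbols and exon lengths came from GENCODE M21. Counts of genes overlapping another on the opposite strand, such as Fh1, Pfkp, Pfkm, G6pdx, Gapdh, Pdha1 and Pfkfb2, could include its reads if strand was not used. The symbol Aldoa has a second row with at most 7 reads per library, which was not used.

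The test was edgeR 4.0.16 (R 4.3.3; filterByExpr, TMM, glmQLFit, glmQLFTest) with 1 mean per group over all 36 libraries (32 residual degrees of freedom) and Benjamini-Hochberg adjustment over 15637 genes at 0.05. It was tested on simulated counts with known changes. CPM values are over TMM library sizes, SEs are the fold change over the root of F, and intervals are 95%. The labels do not say that same-numbered mice belong together, and correlations between same-numbered libraries averaged 0.03 (lowest -0.31, highest 0.47), so numbers were not paired. Genes given with values by group are the 12 with the smallest adjusted p in any pairwise comparison, with Hk2, Gapdh and Ldha added after their values were seen; of the further pathway genes, up to 5 per comparison with the smallest adjusted p are named, except 1 that is not reported here. The members, lists and tests were chosen with earlier results of these data known. Alternatives used DESeq2 1.42.0, limma 3.58.1, other filters, scalings and left-out libraries.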

Additional observations from a re-analysis of the deposited data

Results flagged for a closer look

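In groups of 9, a library is listed here when its gap to the nearest other library exceeds 0.493 of the whole range of the group (Dixon's 95% value). Of 184 sets of 1 gene in 1 group, 26 met this, where chance gives about 1 in 20, or 9.2, if the sets were independent, which they are not. PBS-cKOt 1 accounted for 11 of the 26 and STZ-control 7 for 4, and both are among the libraries with the steepest dependence on transcript length.

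PBS-cKOt 1 was the highest of its group for Ldha (674 CPM), Ldhb (1054), Pdhb (178), Idh3b (379.96), Idh3g (316), Suclg1 (442), Fh1 (234), Mdh2 (499.9), Mdh1 (1617) and Taldo1 (263), and the lowest for Pfkfb2 (7.18). Its Mdh1 level compares with 1097 to 1190 CPM in the other 8 libraries and its Fh1 level with 168 to 180.3 CPM. STZ-control 7 was the highest of its group for Tpi1 (728 CPM), Eno1 (357), Mdh2 (513) and G6pdx (45.8). PBS-control 1 was the highest for Pdha1 (835 CPM), Dld (511) and Suclg2 (512). PBS-control 8 was the highest for Hk2, at 10.9 CPM against 0.438 to 2.34 CPM in the other 8 libraries, and for Eno1 (302 CPM). Pfkp was highest in STZ-control 2 (88.7 CPM) and in PBS-control 5 (75.8 CPM), each within its own group. Got2 was highest in STZ-cKOt 9 (292 CPM) and lowest in PBS-cKOt 6 (201 CPM), Idh2 was lowest in STZ-cKOt 1 (322 CPM), and Slc16a3 was lowest in PBS-cKOt 2 (0.246 CPM). The causes were not tested.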

How the results depend on the processing

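The number of called genes was recomputed under 13 alternatives, and no result changed direction. Each percentage that follows a number of called genes is the share called over all genes in that fit. For cKOt against control in PBS mice (14 genes) the number was 9 with no filter on low counts (9.87%). It was 6 without the 7 libraries rich in fat markers (12.8%). For cKOt against control in STZ mice (13) it was 8 without the 4 libraries of steep length dependence (20.2%). It was 6 without those and STZ-control 2 (18.4%). For STZ against PBS in control mice (6) it was 2 with no filter (4.5%). It was 1 without the 4 libraries (9.38%) and 1 without the 5 (7.21%). For STZ against PBS in cKOt mice (6) it was 10 by limma voom with quality weights (15.6%). It was 2 without the 7 fat-rich libraries (7.02%). The interaction gave 0 throughout. Leaving out libraries also leaves fewer samples; the causes of these shifts were otherwise not tested. Over all genes, leaving out the 7 libraries gave 2032 calls against 3661 (genotype, PBS mice), 946 against 1919 (STZ, control mice) and 1116 against 1819 (STZ, cKOt mice), leaving out the 5 gave 1140 against 1919 (STZ, control mice), and for the interaction DESeq2 gave 19 and voom 15, against 7. The alternatives that leave out libraries for their fat markers were added after seeing the data.

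With the replicate number as a block, the counts were 12, 13, 6, 6 and 0, in the order above. The shares over all genes were 23.9, 20, 13, 12.2 and 0.032%. The labels do not say that the numbers pair the mice. Of 54 same-numbered pairs of libraries in different groups, 18 had a correlation over 0.1. Of 432 differently numbered pairs in different groups, 130 did. Of the calls in the pairwise comparisons, Hk2 in both its comparisons, Idh2 and Slc16a3 were lost with the block.

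Genes of few reads, such as Slc16a3 with 3 to 23 reads per library, and differences under the smallest called one (0.12 on the log2 scale) are at the limit of these data.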
